A study of Homo sapiens with 2 samples.

Results

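The 10 genes described here encode regulators of mTORC1, the kinase complex that couples growth to nutrients: DDIT4, SESN1, SESN2, SESN3, TSC1, TSC2, DEPTOR, RHEB, RPTOR and MTOR. They were taken by name from the 19775 genes to which the array's annotation gives a probe set of their own, and all 10 had at least 1, with 28 probe sets between them. The list was chosen by the function of the genes and by the lower DDIT4 level on these same arrays, so the values below are a description and were not tested. RNA came from MDA-MB-231, an established human line of triple-negative breast cancer, and was measured on Affymetrix U133 Plus 2.0 arrays. The siKMO array holds cells transfected for 48 h with siRNA against KMO, the gene of kynurenine 3-monooxygenase in the breakdown of tryptophan. The siCon array holds cells that received a control siRNA for the same 48 h. There is 1 array of each kind, so no difference has a replicate check, and their number limits the precision. The array names in the labels read shLUC and shK421, as is usual for short hairpins, while titles and protocols name siRNA.

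mTORC1 is active when the small GTPase Rheb, loaded with GTP, meets the kinase at the lysosome. The TSC complex of TSC1 and TSC2 switches Rheb off, and DDIT4, a protein made under hypoxia, energy stress and glucocorticoids, acts through that complex to hold mTORC1 down. Sestrins reach the same end from the amino acid side: Sestrin2 binds leucine and, when leucine is scarce, restrains the GATOR2 complex upstream of the Rag GTPases. Raptor, the product of RPTOR, presents substrates to the kinase MTOR, and DEPTOR binds and inhibits it. These are RNA levels, and the activity of mTORC1 was not measured.

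The starts of the DDIT4 and SESN2 genes are shown because these were the only members with a difference of at least 1.5-fold when each gene is read from its brightest probe set. RefSeq places the 250 bases before the DDIT4 start at chr10:72273674-72273923 and those before the SESN2 start at chr1:28259268-28259517, both on the plus strand of GRCh38.p14. Capitals mark matches, on either strand, to ACGTG, a form of the core of the hypoxia response element, TGATGNAA, the C/EBP-ATF response element that ATF4 uses, or AGAACA and TGTTCT with 3 bases between them, the glucocorticoid response element. Other forms of the hypoxia core were not searched.
DDIT4: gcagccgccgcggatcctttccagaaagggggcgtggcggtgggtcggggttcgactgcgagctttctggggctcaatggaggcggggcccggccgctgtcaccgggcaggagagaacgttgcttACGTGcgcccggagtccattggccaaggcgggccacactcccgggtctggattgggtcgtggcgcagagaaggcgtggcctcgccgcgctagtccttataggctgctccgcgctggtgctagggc
SESN2: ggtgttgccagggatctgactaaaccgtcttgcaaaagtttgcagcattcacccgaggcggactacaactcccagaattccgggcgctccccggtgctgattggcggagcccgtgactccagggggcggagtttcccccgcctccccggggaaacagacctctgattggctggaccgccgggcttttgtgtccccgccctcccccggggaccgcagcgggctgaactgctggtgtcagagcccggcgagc
DDIT4 held 1 match, an ACGTG from 125 to 121 bases before its start, and SESN2 held none of the 3 motifs in this window. ACGTG occurred in 18.5% of all 35116 RefSeq promoters of the same length, TGATGNAA in 3.14%, and the glucocorticoid element in 1 promoter. RefSeq gave 12 promoters for 9 members. Of these, 3 held ACGTG, those of RHEB and DDIT4 and 1 of TSC2, and the same TSC2 promoter held TGATGNAA, which overlapped its ACGTG. A match is a run of letters and does not show that a factor binds there.

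Levels are log2 values after robust multi-array averaging (RMA), differences are siKMO minus siCon, and a difference of 1 is 2-fold. Each gene was read from its brightest probe set by the mean of both arrays, and it is called measured if that mean reached 6. RMA has no true 0, and 6 background genes of unrelated tissues, such as ALB and INS, had a median of 4.01 in the siKMO array and 3.66 in the siCon array. Of the 10 members, 6 were measured: DDIT4, SESN2, TSC1, TSC2, RHEB and MTOR. The minimum fell among close values, with MTOR just inside at a mean of 6.003 and SESN1 and RPTOR just outside at 5.90 and 5.87. Where a level lay under 6, a difference is also given as a bound with that level taken as 6.

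KMO was at background in both arrays, with its 3 probe sets from 2.35 to 2.92 in the siKMO array and from 2.11 to 2.95 in the siCon array, so it does not check the labels. The mesenchymal markers usual for this line were high, VIM at 12.96 in the siKMO array and 12.90 in the siCon array, and 6 of the 7 high markers were measured, all but SPARC. The hormone receptors ESR1 and PGR were under 6. E-cadherin (CDH1), which MDA-MB-231 is usually described as lacking, stood at 8.62 in the siKMO array and 10.54 in the siCon array, and EPCAM at 7.85 in the siKMO array and 8.75 in the siCon array. In all, 7 of 9 genes listed as low or absent in this line had a mean of at least 6. That minimum marks a gene as measured and does not tell a low level from a high one. CLDN3 lay close to it, at a mean of 6.10, and ERBB2 had a mean of 7.40. The levels of CDH1, EPCAM, CD24 (mean 9.95) and KRT19 (mean 10.72) go against the label, and the identity of the cultures was not tested. All 7 measured genes of this list read lower in the siKMO array, as DDIT4 did: CDH1 differed by -1.92, CD24 by -1.01, EPCAM by -0.90, CLDN4 by -0.54, KRT19 and CLDN3 by -0.41 each and ERBB2 by -0.07. Of the 6 measured high markers 3 read higher and 3 lower, with differences from -0.23 for ZEB1 to 0.16 for CAV1, and the keratins KRT8 and KRT18 both read higher, by 0.17 and 0.15. The part of this epithelial set in the results below was not tested. The markers of leukocytes, endothelium and red cells with a probe set were all under 6. The 3′ probe set of ACTB exceeded its 5′ probe set by 0.33 in the siKMO array and 0.39 in the siCon array. The median of the measured genes was 0.04 higher in the siKMO array.

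DDIT4 was lower in the siKMO array by the widest margin of the 10 genes. Its only probe set, 202887_s_at, read 9.61 in the siKMO array and 11.57 in the siCon array. Both levels lay far above the minimum. The difference of -1.96 is a 3.88-fold lower level, and only 5 of the 8997 measured genes had a lower one. It was the only member to differ by 2-fold, where 1.39% of measured genes were at least 2-fold lower and 0.856% at least 2-fold higher. Because this lower level was part of the choice of the list, the count is no result about the members. With 1 probe set, no second measurement of the DDIT4 transcript was at hand, and the suffix _s_at marks probes that can match several transcripts. In a whole culture, fewer cells that express a gene and less of its RNA per cell cannot be told apart.

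The 5 genes below DDIT4 in the order of differences were MMP1, an interstitial collagenase, SPINK4, PSG5, S100P and SUSD2. Of these, MMP1 alone had both levels above 6, at 6.94 in the siKMO array and 9.78 in the siCon array. The 4 others lay under 6 in the siKMO array, so their deposited differences are compressed and their order is not settled. Next above DDIT4 came CDH1 (-1.92), the water and glycerol channel AQP3 (-1.91, or lower by at least 1.84), the proteoglycan CSPG4 (-1.89, or lower by at least 1.24), PSG9 (-1.85) and the cytokine IL24 (-1.81).

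The measured genes whose pair of levels lay nearest that of DDIT4, by Euclidean distance over the 2 arrays, were SAT1, PLOD2, SPINT2, ADAM10 and MORC4, at distances from 0.46 to 0.78. SAT1, the acetyltransferase that starts polyamine breakdown, stood at 9.73 in the siKMO array and 11.12 in the siCon array. PLOD2, a collagen lysyl hydroxylase, stood at 10.22 in the siKMO array and 11.34 in the siCon array. All 5 were lower in the siKMO array, by 0.86 to 1.39, as any gene this near DDIT4 in both levels would be. The levels of different probe sets are not a common scale, so the distance orders readings and not transcript amounts.

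**Figure D1:**
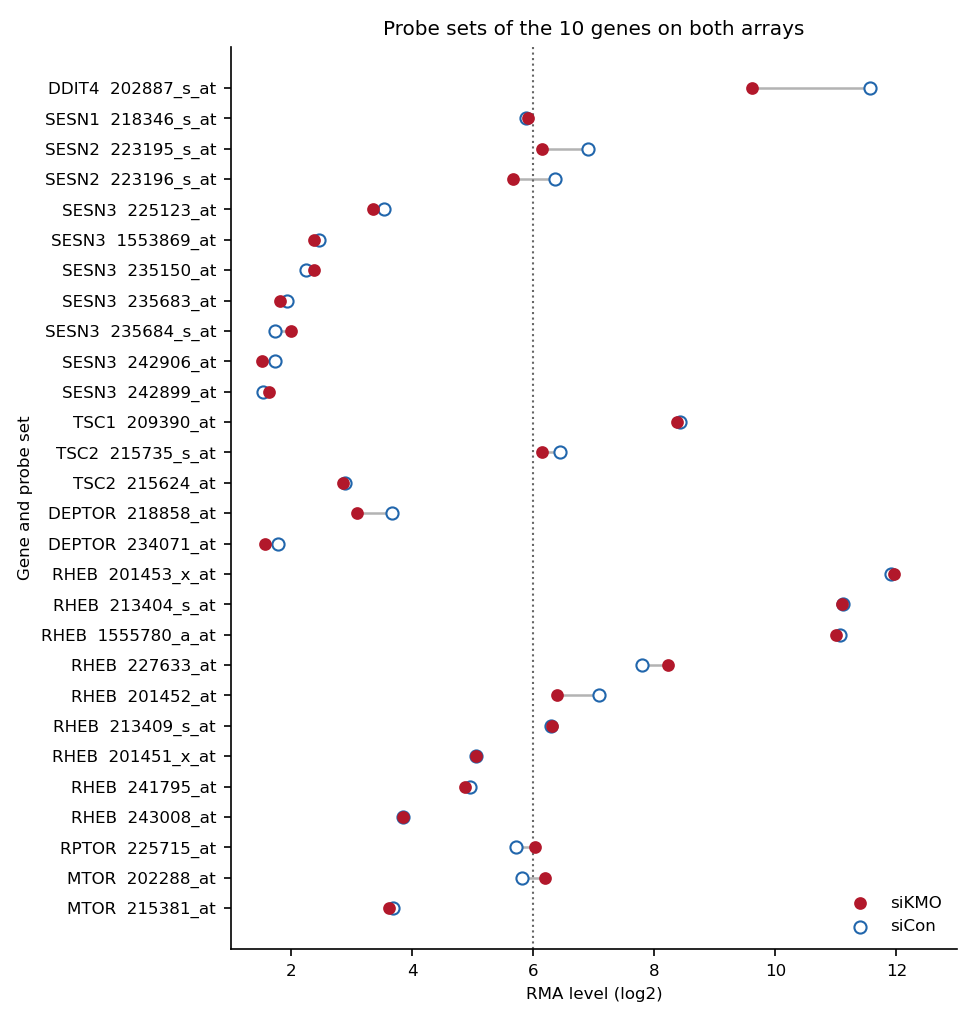
RMA level (log2, horizontal axis) of each of the 28 probe sets of the 10 genes, with the siKMO array as filled red points and the siCon array as open blue points. The dotted line marks the minimum of 6. DDIT4 has the widest gap, 9.61 in the siKMO array against 11.57 in the siCon array, both SESN2 probe sets are lower in the siKMO array, and those of SESN3 and DEPTOR lie far under 6.

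Among the sestrins, only SESN2 was measured, and it was lower in the siKMO array with both of its probe sets. Probe set 223195_s_at read 6.14 in the siKMO array and 6.91 in the siCon array, a difference of -0.77 or a 1.71-fold lower level. Probe set 223196_s_at read 5.67 in the siKMO array and 6.36 in the siCon array, a difference of -0.69, or lower by at least 0.36 with the siKMO level taken as 6. Both probe sets therefore pointed the same way at levels close to the minimum. At least 1.5-fold lower levels were found for 2 of the 6 measured members, DDIT4 and SESN2, and for 5.41% of all measured genes. The lower level of DDIT4 was part of the choice of the list, so the 2 shares cannot be compared as a result. At least 1.5-fold higher levels were found for 0 of the 6, and for 5.19% of all measured genes.

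SESN1, the sestrin first described as a p53 target, read 5.91 in the siKMO array and 5.88 in the siCon array with its only probe set. The 2 levels were alike, 0.04 apart, and just under the minimum. SESN3, a sestrin that FOXO factors switch on, had 7 probe sets, from 1.52 to 3.36 in the siKMO array and from 1.54 to 3.54 in the siCon array. All 7 lay under the median of the unrelated-tissue genes in both arrays, 3 were higher and 4 lower in siKMO, and their differences ran from -0.21 to 0.27. No direction can be read for SESN3 from such levels.

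The subunits of the TSC complex differed little. TSC1, which stabilises the complex, read 8.37 in the siKMO array and 8.42 in the siCon array, a difference of -0.05. TSC2, which holds the domain that acts on Rheb, read 6.14 in the siKMO array and 6.43 in the siCon array with probe set 215735_s_at, a difference of -0.30 or a 1.23-fold lower level. Its other probe set lay at background, at 2.86 in the siKMO array and 2.90 in the siCon array. TBC1D7, the remaining subunit of the complex, differed by 0.13 (7.21 in the siKMO array, 7.08 in the siCon array). DDIT4L, the paralog of DDIT4, was at background, at 3.11 in the siKMO array and 3.41 in the siCon array. RHEBL1, a relative of RHEB, differed by -0.17, and the median of it and TBC1D7 was -0.02.

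RHEB, the GTPase that activates mTORC1, had 9 probe sets, of which 6 had a mean of at least 6. The 3 brightest differed by at most 0.06 in size: 201453_x_at read 11.95 in the siKMO array and 11.91 in the siCon array, a difference of 0.05, and the other two, 213404_s_at and 1555780_a_at, differed by -0.02 and -0.06. The remaining measured probe sets disagreed among themselves. Probe set 227633_at was higher in the siKMO array, at 8.22 against 7.80 in the siCon array, a difference of 0.42. Probe set 201452_at was lower, at 6.40 in the siKMO array against 7.08 in the siCon array, a difference of -0.68 or 1.60-fold. Probe set 213409_s_at differed by 0.02. The 3 weakest probe sets lay under 6, and 2 of them, 201451_x_at and 243008_at, had the same value on both arrays, as had 9.46% of all 54675 probe sets. RHEB therefore had no settled difference, since its brightest probe sets hardly differed between the arrays and dimmer ones pointed both ways. The brightest carries the suffix _x_at, which marks probes that can match other sequences.

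For the kinase and its direct partners, levels were close to the minimum or under it. MTOR read 6.19 in the siKMO array and 5.82 in the siCon array with probe set 202288_at, a difference of 0.37, or higher by at least 0.19 with the siCon level taken as 6. Its other probe set read 3.61 in the siKMO array and 3.68 in the siCon array. RPTOR read 6.03 in the siKMO array and 5.72 in the siCon array, a difference of 0.31, or higher by at least 0.03. DEPTOR was at background with both probe sets. Its brighter one read 3.08 in the siKMO array and 3.66 in the siCon array and the other 1.57 in the siKMO array and 1.78 in the siCon array, and no fold is given at such levels.

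**Figure D2:**
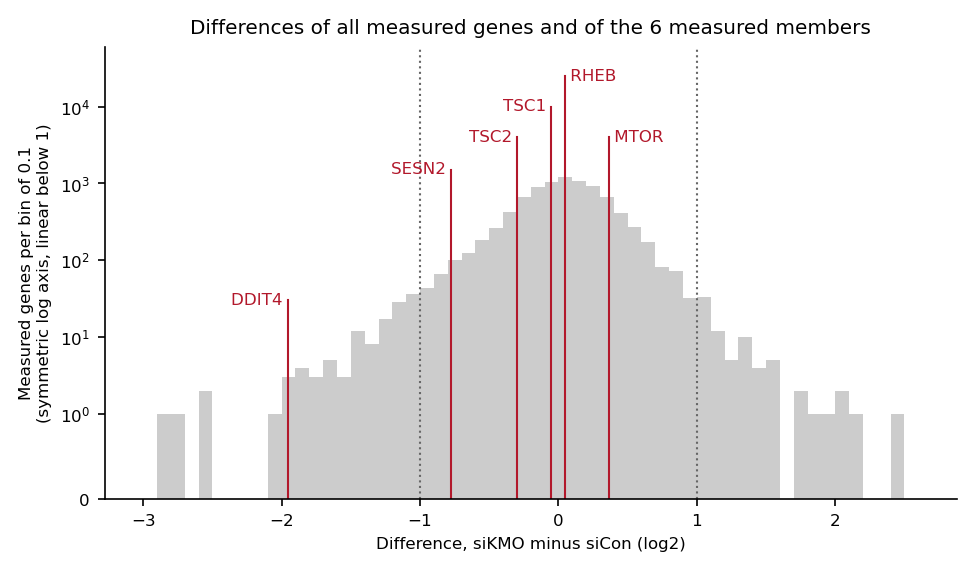
Number of measured genes (vertical axis, logarithmic above 1 and linear below) by their difference, siKMO minus siCon (log2, bins of 0.1), with the 6 measured members as red lines whose heights serve only for labelling. Dotted lines mark 2-fold. DDIT4 lies in the lower tail at -1.96 and SESN2 at -0.77, while TSC2, TSC1, RHEB and MTOR lie between -0.30 and 0.37.

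Over the 6 measured members the median difference was -0.17, with 4 lower and 2 higher in siKMO. Over all 8997 measured genes the median was 0.04, with 3967 lower and 4928 higher. Of them, 5.41% were at least 1.5-fold lower and 5.19% at least 1.5-fold higher. The lists below can be read beside these values. DDIT4 and SESN2, both stress-induced inhibitors, stood at the low end. The lower level of DDIT4 was part of the choice of the list, so neither its place nor the median of the members is a result. The GTPase, the kinase and TSC1 stood within 0.37 of 0. In the order of all measured genes from the lowest difference, SESN2 held place 262, TSC2 1357, TSC1 3440, RHEB 4616 and MTOR 7671.

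Other subunits and assembly factors of the mTOR complexes mostly read slightly higher in siKMO. Of 9 listed genes 6 were measured, 5 higher and 1 lower, with a median of 0.28, and 0 differed by 1.5-fold. MLST8, a subunit of both mTOR complexes, read 6.82 in the siKMO array and 6.54 in the siCon array, and AKT1S1, the inhibitory subunit PRAS40 of mTORC1, differed by 0.27. MAPKAP1, a subunit of mTORC2, differed by 0.36 (0.11 to 0.43 over 4 probe sets), and TTI1, a factor for the assembly of the kinase, by 0.36. RICTOR, which defines mTORC2, went the other way, at 9.57 in the siKMO array and 10.04 in the siCon array, a difference of -0.47 (-0.59 to -0.42 over 3 probe sets).

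The lysosomal and amino acid sensing machinery on which sestrins act differed little. Of 13 genes for the Rag GTPases, Ragulator and their partners, 12 were measured, 7 higher and 5 lower, with a median of 0.03 and 0 at 1.5-fold. RRAGB, a Rag GTPase, had the widest difference, at 6.62 in the siKMO array and 6.08 in the siCon array, or 0.54, followed by the Ragulator subunit LAMTOR4 at 0.19. Of 15 genes for the GATOR complexes, KICSTOR and the sensors of arginine and S-adenosylmethionine, 7 were measured, 6 higher and 1 lower, with a median of 0.15 and 0 at 1.5-fold. WDR59, a subunit of GATOR2, was the lower one, at 6.97 in the siKMO array and 7.52 in the siCon array, and the KICSTOR subunit KPTN differed by 0.23, or was higher by at least 0.19. CASTOR1, an arginine sensor, was under the minimum, at 5.41 in the siKMO array and 6.15 in the siCon array.

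Genes of LKB1 and AMPK, the energy sensor that phosphorylates TSC2 and Raptor, were lower for the most part. Of 10 listed genes 8 were measured, 6 lower and 2 higher, with a median of -0.20 and 2 at least 1.5-fold lower. Over all measured genes, 5.41% were at least 1.5-fold lower, and the difference from that share was not tested. PRKAA1, a catalytic subunit of AMPK, read 7.17 in the siKMO array and 7.95 in the siCon array, a 1.72-fold lower level, although its 3 measured probe sets ran from -0.78 to -0.20. PRKAB2, a regulatory subunit, read 6.62 in the siKMO array and 7.38 in the siCon array, a 1.69-fold lower level. Averaging every probe set of a gene, with the minimum applied again to the averages, gave a list median of -0.035. Genes from the insulin receptor to AKT showed no common direction, with 11 of 18 measured, 4 higher, 6 lower and 1 equal, a median of -0.02 and 0 at 1.5-fold. PIK3CB, a catalytic subunit of PI3K, differed by -0.39 and PDPK1, the kinase PDK1 that activates AKT, by 0.34.

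Of 17 substrates and outputs of mTORC1, 14 were measured, 10 higher and 4 lower, with a median of 0.21. EIF4EBP2, a repressor of cap-dependent translation that mTORC1 inactivates, was the only one to differ by 1.5-fold. It read 8.60 in the siKMO array and 7.55 in the siCon array, a 2.07-fold higher level, and all 3 of its measured probe sets were higher, the least of them by 0.72. Its paralog EIF4EBP1 differed by 0.39, at 9.05 in the siKMO array and 8.66 in the siCon array. The S6 kinase genes went opposite ways, RPS6KB1 at -0.23 and RPS6KB2 at 0.54, or higher by at least 0.30. ULK1, the kinase that starts autophagy, was just under the minimum, at 5.64 in the siKMO array and 6.30 in the siCon array.

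**Figure D3:**
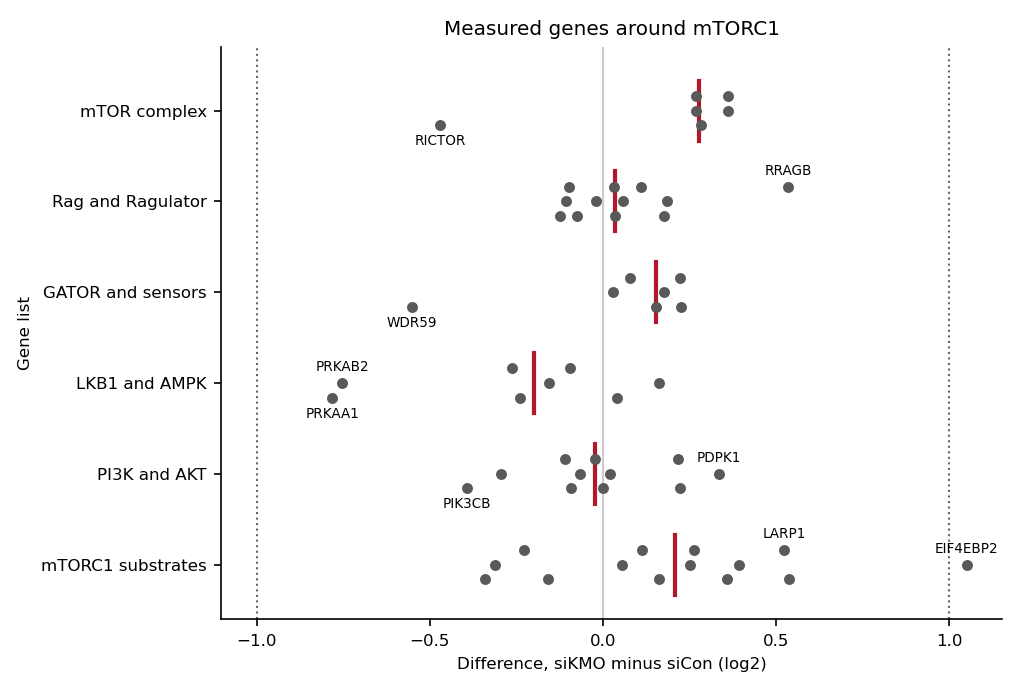
Difference, siKMO minus siCon (log2, horizontal axis), of each measured gene in 6 lists around mTORC1. Points are genes, spread vertically only to separate them, red bars are list medians and dotted lines mark 2-fold. EIF4EBP2 at 1.05 is the only point beyond 2-fold, and the AMPK subunits PRKAA1 and PRKAB2 lie lowest.

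DDIT4 and the sestrin genes are switched on by HIF1A with ARNT, ATF4 with CEBPB, the glucocorticoid receptor NR3C1, FOXO factors, NFE2L2 and p53, depending on gene and tissue. Of 10 such factors listed, 9 were measured, and all 9 read lower in the siKMO array, with a median of -0.20 and 2 at least 1.5-fold lower. Over all 8997 measured genes, 3967 read lower and 5.41% were at least 1.5-fold lower. This list was also drawn up with earlier results of these data known, so the counts are no independent evidence. HIF1A, the hypoxia-inducible factor, read 11.59 in the siKMO array and 12.24 in the siCon array, a 1.57-fold lower level. CEBPB read 10.97 in the siKMO array and 11.56 in the siCon array, a 1.51-fold lower level. NR3C1 differed by -0.50 (-0.57 to -0.39 over 5 probe sets) and ATF4 by -0.27, while FOXO1 differed by -0.03. For NFE2L2, the driver of antioxidant genes, the probe sets ran from -0.19 to 0.14, so its direction was not settled. HIF1A and ATF4 are controlled largely through their proteins, which arrays do not measure.

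Other known targets of these factors were set beside DDIT4 and SESN2, from lists drawn up with their lower levels in part known, which makes them no independent evidence. All 9 measured ATF4 targets of 11 listed were lower, with a median of -0.90, 7 of them by 1.5-fold and 3 by 2-fold. Over all measured genes, 5.41% were at least 1.5-fold lower and 1.39% at least 2-fold lower. TRIB3, a pseudokinase that inhibits AKT, read 7.78 in the siKMO array and 8.76 in the siCon array, and ASNS, asparagine synthetase, read 8.58 in the siKMO array and 9.48 in the siCon array. The transcription factor ATF3 differed by -1.48 (-1.48 to -0.92 over 2 probe sets) and the glutathione-degrading enzyme CHAC1 by -1.46. The transcription factor DDIT3 differed by -1.10, the cystine transporter SLC7A11 by -0.86 and the lipoprotein receptor VLDLR by -0.84. CEBPG and the serine synthesis enzyme PSAT1 differed by -0.05 and -0.02 (-0.02 to 0.09 over 2 PSAT1 probe sets). PHGDH, another serine synthesis enzyme, was under the minimum by its mean and ran the other way, at 6.03 in the siKMO array and 5.55 in the siCon array, or higher by at least 0.03. All 10 measured hypoxia targets of 12 listed were lower, with a median of -0.66, 6 by 1.5-fold and 2 by 2-fold. VEGFA differed by -1.26 to -1.07 over 4 probe sets and BNIP3, a mitophagy receptor that binds Rheb, by -0.83. NDRG1 differed by -1.04, PFKFB4, which sets the level of a glycolytic activator, by -0.82, ANKRD37 by -0.72 and the collagen prolyl hydroxylase subunit P4HA1 by -0.59, whereas ADM differed by -0.11.

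Targets of the glucocorticoid receptor and of p53 went both ways. Of 5 measured glucocorticoid targets, 3 were lower and 2 higher. KLF9 was lower by at least 1.07 (5.82 in the siKMO array, 7.07 in the siCon array) and TSC22D3, the leucine zipper protein GILZ, was 2.02-fold lower. FKBP5, a co-chaperone of the receptor, was 1.70-fold higher and the kinase SGK1 1.66-fold higher. Their median of -0.41 became 0.73 when every probe set of a gene was averaged and the minimum was applied again to the averages. These medians need not cover the same genes, so the change does not show that any gene changed direction. The median has no settled sign. Of 6 measured p53 targets 4 were lower and 2 higher, with a median of -0.29, from GDF15, a stress-induced cytokine, at -1.30 and the cell cycle inhibitor CDKN1A at -0.73, to TP53I3 at 0.62.

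**Figure D4:**
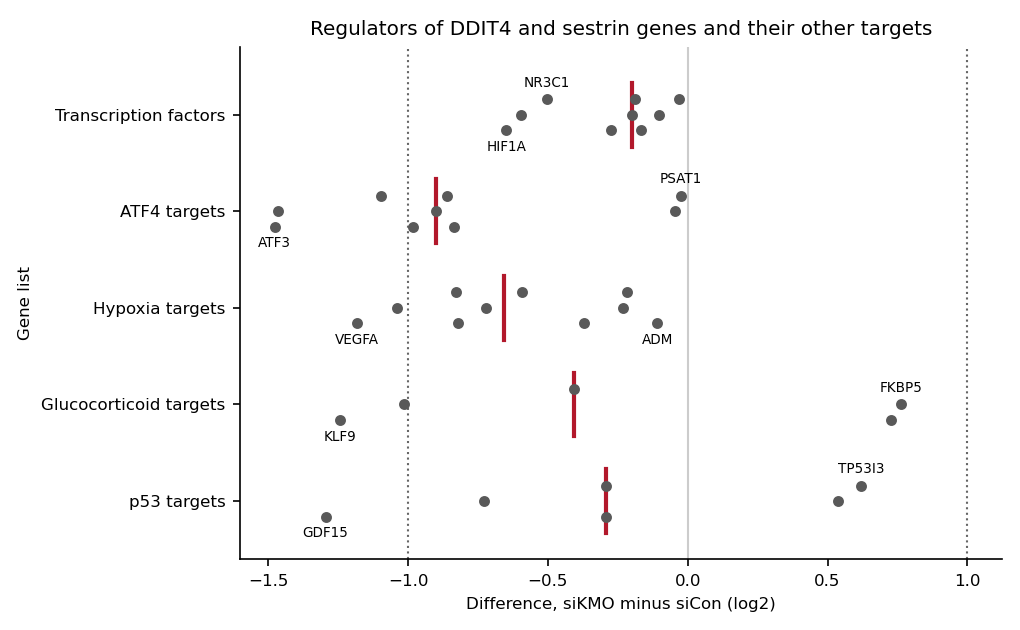
Difference, siKMO minus siCon (log2, horizontal axis), of each measured transcription factor known to act on DDIT4 or sestrin genes, and of other targets of those factors in 4 lists. Points are genes, spread vertically only to separate them, red bars are list medians and dotted lines mark 2-fold. All measured factors, ATF4 targets and hypoxia targets lie below 0, while glucocorticoid and p53 targets lie on both sides.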

How the data were processed

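RNA of 2 cultures of MDA-MB-231 cells, siKMO and siCon, was measured on 1 array each. The deposited values are log2 levels per probe set after robust multi-array averaging, per the labels. Affymetrix Expression Console is named in the submitters' processing notes. Not given in the sources used here are its version and which arrays shared the normalization. RMA equalizes the arrays, so a shift of all transcripts cannot be seen, and it compresses differences of weak probe sets. Arrays give no counting depth.

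Probe sets were named through GEO's platform annotation, and gene identifiers gave the current RefSeq symbols (GRCh38.p14); 1801 probe sets with several genes and 11721 that are not listed named no gene. The brightest probe set by the mean of both arrays stood for a gene, at a minimum mean of 6. With 1 array per condition no test and no p-value was computed, and genes were counted at 2-fold and 1.5-fold. The members and lists were chosen with earlier results of these data known. Named genes were all members, the genes of each list at 1.5-fold or with the largest differences, others for their role, and the 5 nearest to DDIT4 and the 5 on each side of it. Genes of these lists with no probe set of their own were not analysed here. Alternatives changed the minimum, the choice of probe set, the floor, the centring and the fold. Python 3.11.15, pandas 2.3.3 and matplotlib 3.10.9 were used.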

Additional observations from a re-analysis of the deposited data

How the results depend on the processing

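DDIT4 was the only member at least 2-fold lower, and 0 members were at least 2-fold higher, with no minimum, a minimum of 7, the mean of all probe sets, the probe set with the largest difference, levels under 6 taken as 6, and arrays centred on the median of the measured genes. With _x_at and _s_at probe sets left out, the count of members at least 2-fold lower was 0, because the only DDIT4 probe set carries such an ending. Both SESN2 probe sets carry one too, so SESN2 was not read under that setting. With all probe sets kept, the count at 1.5-fold was 2. The median over the measured members, -0.17, was -0.051 at a minimum of 7 and without those probe sets, each with 3 members left. It was -0.39 when all probe sets were averaged, with 4 members left: DDIT4, RHEB, SESN2 and TSC1. With the probe set of largest difference it was -0.49, over the same 6 members. RHEB read 0.05, but -0.68 with its probe set of largest difference and -0.06 without those endings.

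Medians of the wider lists also moved by 0.1 or more in places. That of TBC1D7 and RHEBL1, -0.02, was -0.17 with no minimum, where DDIT4L joined, and 0.13 at a minimum of 7, where only TBC1D7 was left. That of LKB1 and AMPK, -0.20, was -0.035 with the mean of all probe sets, and that of the hypoxia targets, -0.66, was -0.52. That of the glucocorticoid targets, -0.41, was 0.16 at a minimum of 7, where KLF9 with its mean of 6.45 left the list, and 0.73 when all probe sets were averaged. The minimum was applied again after averaging, so medians under different settings need not cover the same genes. In all, 23 values moved and 83 did not; with no replicates, 0.1 was taken as the margin. Leaving out a replicate was not possible with 1 array per condition. Signal close to background limits what can be said of SESN1, SESN3, DEPTOR, RPTOR and MTOR. It also limits SESN2 and TSC2, whose brightest probe sets had means of 6.52 and 6.29 and left at a minimum of 7.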

Other observations

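Some probe sets of a gene near mTORC1 disagreed where others were steady. For RPS6, the ribosomal protein that S6 kinases phosphorylate, the 4 measured probe sets ran from -1.01 to 0.11. For INPP4B, a lipid phosphatase that opposes AKT, the range was 0.22 to 0.75 over 2, and for EIF4E, the cap-binding protein, 0.21 to 0.65 over 3.

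Exact differences recurred among the weakest probe sets of the 10 genes. The difference of -0.21 of SESN3 probe set 242906_at and of DEPTOR probe set 234071_at was the same to the last deposited decimal, and 97 probe sets of the array shared it. For SESN3 probe sets 235683_at, 242899_at and 235150_at, 151, 137 and 111 probe sets shared the difference of each. The DDIT4 difference was shared by 1 probe set, its own.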
